A study of Gossypium hirsutum with 120 samples.

Results

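The cotton entries matched to the BLADE-ON-PETIOLE (BOP) genes were followed in the RNA of nectaries and adjacent tissue of upland cotton, Gossypium hirsutum accession TM-1. The table of this series has 1 entry for each predicted cotton protein, together with a description and the best Arabidopsis match, and the entries taken were those whose match is BOP1 (AT3G57130) or BOP2 (AT2G41370). Of the 49663 entries, 7 had AT2G41370 as their match and 0 had AT3G57130. A best match to BOP2 does not by itself place a cotton gene with BOP2 rather than with its close relative BOP1. All plants belonged to the same accession and carried no mutation or treatment, so every comparison was between tissues, stages or nectary types. The nectary and its adjacent non-nectary control tissue had 2 and 3 RNA samples in pre-secretory floral tissue, and 3 each in secretory and in post-secretory floral tissue. Bracteal tissue had 2 and 2 samples before secretion and 3 and 3 after it. Circumbracteal tissue had 3 and 3 at both of these stages, and neither type had secretory samples among those analysed. Foliar tissue had 2 and 2 pre-secretory samples, 1 and 1 secretory samples, and 3 and 3 post-secretory samples. The floral stages are those before, at and after anthesis, the bracteal and circumbracteal stages are young squares and organs some time past flowering, and the foliar stages follow the growth of the leaf. Each sample was a pool of nectaries or of tissue pieces. The study calls its replicates biological, and the labels do not say whether they came from separate plants. The p-values therefore measure the spread between these pools, which may differ from that between plants.

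BOP1 and BOP2 of Arabidopsis encode transcriptional co-regulators with a BTB/POZ domain and ankyrin repeats, which belong to the NPR family of defence regulators and act through TGA-type bZIP transcription factors. They are active at the base of lateral organs and in the boundaries between organs and meristem, where they hold back class I KNOX homeobox genes in leaves and are needed for abscission zones. Arabidopsis flowers without both genes fail to form normal nectaries, which is the reason to follow the cotton entries over nectary types. Cotton nectaries differ from those of Arabidopsis in being fields of multicellular glandular hairs, on the inner calyx in the flower, at the base of the bracts, on the outer calyx between the bracts (the circumbracteal nectary), and on the leaf midvein.

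The table totals per RNA sample, both sequencing runs added, were 7489375 to 16203450 with a median of 10187922. The values are whole numbers that appear scaled, although the sources used here do not state this or give a method. A level is therefore not taken as a number of reads. Levels of different entries are set side by side only as the table lists them. Dividing each sample by its upper-quartile factor, 0.559 to 1.247, gave what are called normalized values. A difference is given as a log2 fold change of the normalized value plus 1, with its standard error (SE), from limma on all 51 samples. It was called where the p adjusted by the Benjamini-Hochberg method over all entries, or over all Arabidopsis matches for summed values, was under 0.05 and the change was at least 1.5-fold. All of this is bulk RNA, where fewer cells of a type and less RNA per cell cannot be told apart. The nectary labels were checked on the summed level of 3 genes known from nectaries, the regulator CRC, the sugar exporter SWEET9 and the cell wall invertase CWINV4. Their sum was higher in the nectary than in the adjacent samples in each of the 10 pairs of conditions without overlap, for example at 27725 to 82100 in pre-secretory floral nectaries, against 66.3 to 363 in their adjacent tissue. The sum rests largely on CWINV4, since SWEET9 was listed at 0 in all samples that were not floral, and CRC was at no more than 5.64 in the floral nectaries. The study itself, with another annotation, measured SWEET9 in bracteal nectaries too. It reports CWINV4 well below SWEET9 in the bracteal, circumbracteal and foliar types. A SWEET9 value of 0 here is therefore not read as absence of its RNA. CRC itself did not follow the nectary label in the flower, where it was called lower after secretion, at 0 to 5.64 in the nectary samples, against 4.95 to 33.6 in the adjacent samples (-2.93 ± 0.77, adjusted p = 0.0142), and was not called before (-1.42) or during secretion (-1.74).

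The 7 entries carry the description regulatory protein NPR5-like, NPR5 being another name of BOP2, and all 7 passed the filter on low values (at least 10 in at least 2 samples). By accession, 6 of them were paired with 3 cotton genes of the RefSeq annotation of assembly Gossypium_hirsutum_v2.1. XP_016706470.1 is the protein of LOC107921109. XP_016671604.1 and XP_016671603.1 are isoforms X3 and X2 of LOC107891351, and XP_016669278.1, XP_016669276.1 and XP_016669277.1 are isoforms X3, X1 and X2 of LOC107889382. XP_016706454.1 was paired with no gene. Cotton is a tetraploid with near-identical gene copies, and how reads were shared out among copies and isoforms is not given in the sources used here, so the split between entries is less certain than their sum.

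XP_016706470.1 and XP_016671604.1 made up most of the summed level, with means of 39.7% and 32.4% of the sum over the 51 samples. Their normalized values had medians of 32.2 (0 to 164) and 24.6 (0 to 242). The other entries were low, with medians of 7.28 for XP_016669278.1, 4.00 for XP_016706454.1, 2.63 for XP_016671603.1, 2.49 for XP_016669276.1 and 1.92 for XP_016669277.1, and XP_016669277.1 was at 0 in 18 samples. A single value of these 5 therefore says little, and they are described mainly through counts and through the sum. The sum of all 7 had a median of 67.0, from 11.2 in a pre-secretory sample beside the foliar nectary to 448 in a secretory floral nectary.

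The summed BOP level was higher in the floral nectary than in its adjacent tissue at all 3 stages. In pre-secretory flowers it was 93.1 and 179 in the nectary samples, against 27.4, 30.7 and 35.3 in the adjacent samples. In secretory flowers it was 448, 375 and 175 in the nectary samples, against 61.8, 59.3 and 73.4 in the adjacent samples. In post-secretory flowers it was 281, 201 and 193 in the nectary samples, against 109.9, 65.2 and 74.8 in the adjacent samples. The groups did not overlap at any of these stages, and the widest spread was among the secretory nectaries, where replicate 3 lay well below the others and still above every adjacent sample. The means ± SD were 136 ± 60.4 in the nectary (n = 2) and 31.1 ± 4.00 in the adjacent tissue (n = 3) before secretion. They were 333 ± 141 in the nectary and 64.8 ± 7.52 in the adjacent tissue during secretion, and 225 ± 48.5 in the nectary and 83.3 ± 23.5 in the adjacent tissue after it (n = 3 each). The log2 fold changes were 2.02 ± 0.44 (adjusted p = 0.00134) before secretion, 2.24 ± 0.40 (adjusted p = 0.000121) during it and 1.44 ± 0.40 (adjusted p = 0.0221) after it, and all 3 were called by limma, where 15.3%, 13.8% and 5.94% of the 14133 Arabidopsis matches were called in either direction. The secretory difference was called with any sample left out, while the pre-secretory call was lost without nectary replicate 2 (1.56, adjusted p = 0.0597). The post-secretory call was lost without nectary replicate 1 (1.27, adjusted p = 0.0970), nectary replicate 2 (1.51, adjusted p = 0.0596), adjacent replicate 2 (1.28, adjusted p = 0.112) or adjacent replicate 3 (1.38, adjusted p = 0.0812).

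**Figure D1:**
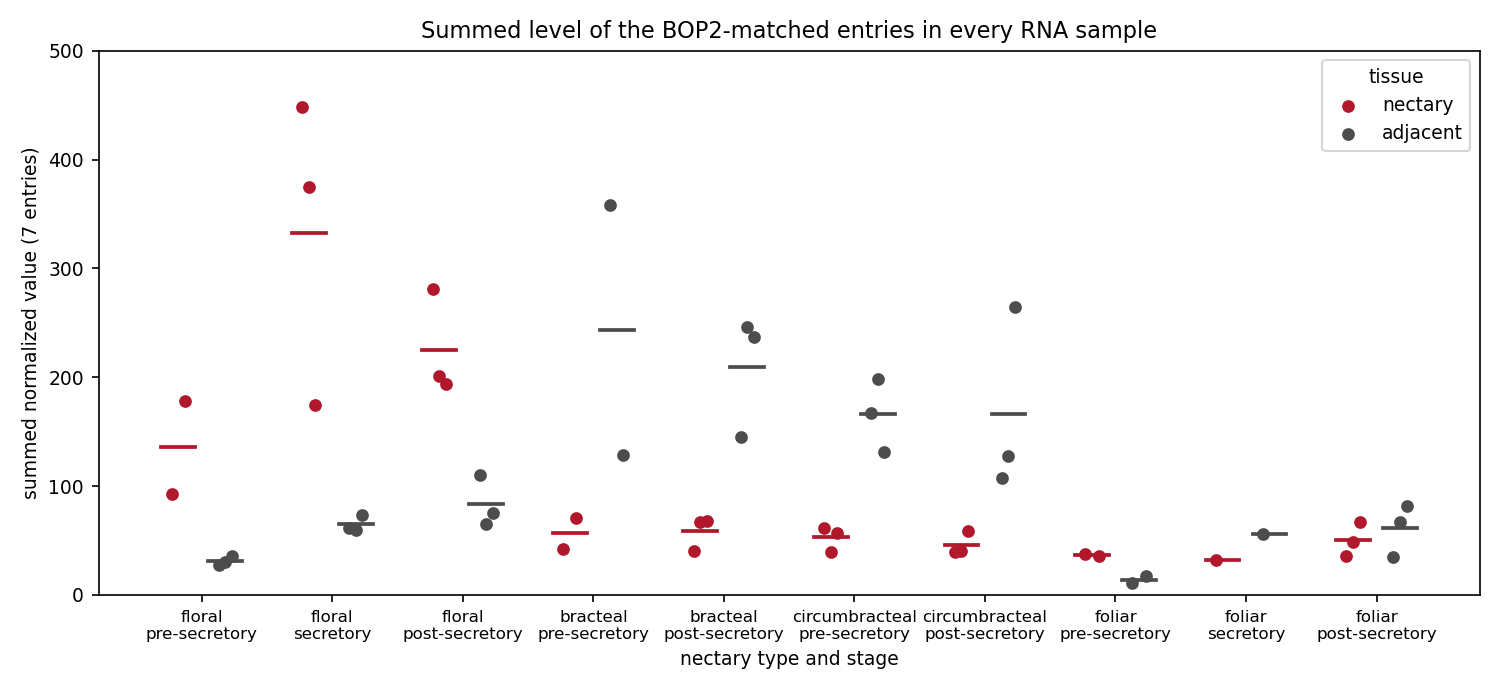
Summed normalized value of the 7 BOP2-matched entries (vertical axis) in each of the 51 RNA samples, by nectary type and stage, with nectary samples left of adjacent samples. Points are samples and bars are means. The floral nectary samples lie above their adjacent samples at each stage, the bracteal and circumbracteal nectary samples lie below theirs, and the secretory floral nectary reaches 448.

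In the bracteal and circumbracteal nectaries, which sit on the bracts and on the outer calyx, the summed level was on the other side of its adjacent tissue. In pre-secretory bracteal tissue it was 42.4 and 70.9 in the nectary samples, against 358 and 129 in the adjacent samples. In post-secretory bracteal tissue it was 40.7, 67.0 and 68.1 in the nectary samples, against 145, 246 and 237 in the adjacent samples. The bracteal groups did not overlap at either stage, and the adjacent replicate 2 of the pre-secretory stage was the highest of all adjacent samples. In pre-secretory circumbracteal tissue the level was 61.2, 39.9 and 57.3 in the nectary samples, against 167, 199 and 132 in the adjacent samples. In post-secretory circumbracteal tissue it was 39.9, 40.3 and 58.6 in the nectary samples, against 107, 127 and 264 in the adjacent samples. These groups did not overlap either. The log2 fold changes were -1.82 ± 0.40 (adjusted p = 0.00466) in post-secretory bracteal, -1.64 ± 0.40 (adjusted p = 0.0101) in pre-secretory circumbracteal and -1.73 ± 0.40 (adjusted p = 0.00529) in post-secretory circumbracteal nectaries, and these 3 were called lower, where 3.34%, 5.89% and 7.33% of all matches were called in either direction. The pre-secretory bracteal difference, -1.95 ± 0.49 (adjusted p = 0.147) with 2 samples a side, was not called, and 0.0566% of all matches were called there. It was called without adjacent replicate 3 (-2.69, adjusted p = 0.0356), the circumbracteal pre-secretory call was lost without adjacent replicate 2 (-1.50, adjusted p = 0.0588) and the post-secretory one without adjacent replicate 3 (-1.34, adjusted p = 0.0699). In a fit of the compared conditions alone, with fewer samples behind the spread, the bracteal and circumbracteal calls and the pre-secretory floral call were lost at the same fold changes (adjusted p = 0.0845 for post-secretory bracteal, 0.234 and 0.179 for pre- and post-secretory circumbracteal, and 0.0553 for floral), and scaling by the total in place of the upper quartile ended the post-secretory floral (1.33, adjusted p = 0.181) and bracteal calls (-1.52, adjusted p = 0.119).

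The foliar nectary, on the underside of the leaf midvein, had low BOP levels at each stage. In pre-secretory leaves the sum was 37.4 and 36.0 in the nectary samples, against 11.2 and 17.0 in the adjacent samples, so that the groups did not overlap. In the single secretory pair it was 31.8 in the nectary, against 56.2 in the adjacent tissue, with no replicate check. In post-secretory leaves it was 36.0, 48.2 and 66.7 in the nectary samples, against 35.1, 66.7 and 81.9 in the adjacent samples, and these groups overlapped. Neither replicated difference was called, at 1.35 ± 0.49 (adjusted p = 0.226) before secretion, where 1.22% of all matches were called, and -0.24 ± 0.40 (adjusted p = 1) after it, where 2.56% were. The post-secretory value changed its sign without adjacent replicate 3 (0.01, adjusted p = 1).

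Averaged over the 4 nectary types with equal weight, the opposite differences largely cancelled. The average log2 fold change of nectary over adjacent tissue was -0.05 ± 0.23 (adjusted p = 0.906) before secretion and -0.59 ± 0.20 (adjusted p = 0.0411) after it. The post-secretory average was called lower, where 11.0% of all matches were called in either direction and 12.6% in the pre-secretory average. That call was lost in 13 of the 24 fits that left out 1 sample, with values between -0.68 and -0.49 over all 24 and an adjusted p of up to 0.105, and with scaling by the total (-0.57, adjusted p = 0.185), a single run, or 10 added before the logarithm. The samples whose absence ended it were floral nectary replicates 2 and 3 and adjacent replicate 1, bracteal nectary replicate 1 and adjacent replicates 2 and 3, circumbracteal nectary replicates 1 and 2 and adjacent replicate 3, and foliar nectary replicates 1 and 2 and adjacent replicates 2 and 3. The pre-secretory average changed its sign without floral nectary replicate 1 (0.06), bracteal nectary replicate 2 (0.04), bracteal adjacent replicate 2 (0.13) or foliar adjacent replicate 3 (0.02).

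The difference between nectary types in this nectary-over-adjacent change was itself tested within that limma fit, in contrasts chosen after the values had been seen. Floral minus bracteal was 3.97 ± 0.66 (adjusted p = 0.000242) before secretion and 3.26 ± 0.56 (adjusted p = 0.000518) after it. Floral minus circumbracteal was 3.66 ± 0.60 (adjusted p = 0.000104) before secretion and 3.17 ± 0.56 (adjusted p = 0.000665) after it. These 4 differences were called with any sample left out, and the first of them was 3.24 without bracteal adjacent replicate 2 and 4.71 without bracteal adjacent replicate 3. With the compared conditions alone in the fit, that first difference was not called (3.97, adjusted p = 0.0716). Before secretion, bracteal minus foliar (-3.30 ± 0.69, adjusted p = 0.0266) and circumbracteal minus foliar (-2.98 ± 0.63, adjusted p = 0.0146) were also called, which made 6 of 12 pairs, where 1.71% of all matches and pairs were called. The bracteal against foliar call rests on 2 samples a condition and was lost in 7 of 8 fits that left out 1 of them, at log2 values of -3.66 to -2.56, and only leaving out bracteal adjacent replicate 3 kept it (-4.03). The circumbracteal against foliar call was lost without foliar nectary replicate 1 (-2.96, adjusted p = 0.0637), foliar nectary replicate 2 (-3.01, adjusted p = 0.102) or foliar adjacent replicate 1 (-2.70, adjusted p = 0.108). Both calls against the foliar nectary were also lost with scaling by the total (-3.17, adjusted p = 0.429 for bracteal and -2.98, adjusted p = 0.118 for circumbracteal), with run 2 alone and with the compared conditions alone. Floral minus foliar was not called at either stage (0.68 ± 0.66, adjusted p = 0.824 before and 1.68 ± 0.56, adjusted p = 0.107 after secretion), nor was bracteal minus circumbracteal (-0.31 ± 0.63, adjusted p = 1 and -0.09 ± 0.56, adjusted p = 0.980). The comparisons of one type share that type's samples.

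**Figure D2:**
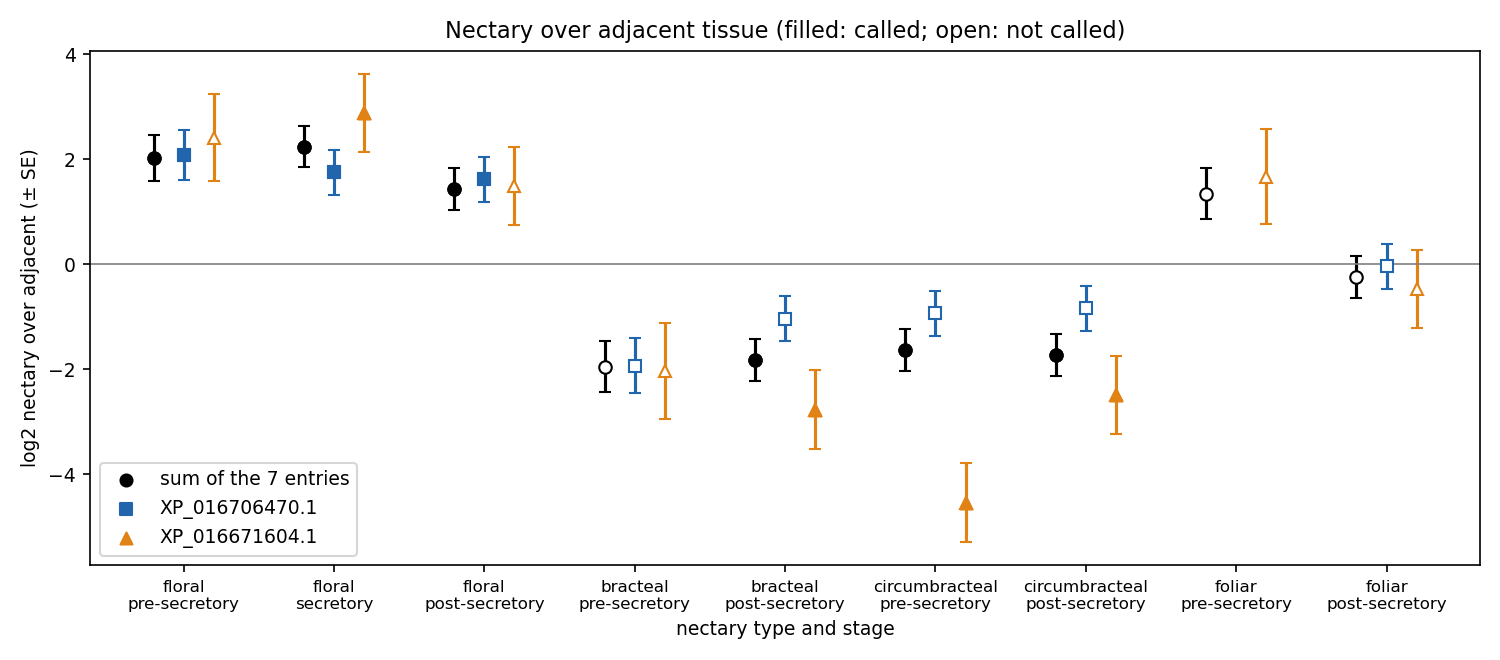
Log2 fold change of nectary over adjacent tissue for the summed BOP level, XP_016706470.1 and XP_016671604.1 (vertical axis) in the 9 replicated comparisons (horizontal axis). Error bars are standard errors from limma, filled symbols were called, and XP_016706470.1 is not drawn in pre-secretory leaves, where its adjacent samples were at 0. The sum lies at 1.44 to 2.24 in the 3 floral comparisons and at -1.95 to -1.64 in the bracteal and circumbracteal ones.

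Taken entry by entry, the most abundant entry followed the sum in the flower. XP_016706470.1 was at 41.9 and 80.7 in the nectary samples, against 9.12, 18.6 and 12.9 in the adjacent samples before secretion. During secretion it was at 121, 75.0 and 91.9 in the nectary samples, against 29.7, 21.4 and 32.2 in the adjacent samples. After secretion it was at 164, 74.3 and 98.3 in the nectary samples, against 36.6, 38.4 and 27.8 in the adjacent samples. The groups did not overlap at any floral stage, and the log2 fold changes of 2.08 ± 0.48 (adjusted p = 0.00353) before, 1.75 ± 0.43 (adjusted p = 0.00600) during and 1.62 ± 0.43 (adjusted p = 0.0203) after secretion were all called. The secretory call held with any sample left out, the pre-secretory one was lost without nectary replicate 2 (1.61, adjusted p = 0.119), and the post-secretory one was lost without nectary replicate 1, nectary replicate 3, adjacent replicate 1 or adjacent replicate 3, at log2 values of 1.31, 1.67, 1.67 and 1.48. Scaling by the total ended the secretory (1.20, adjusted p = 0.126) and the post-secretory call (1.51, adjusted p = 0.0939), and run 1 alone or the compared conditions alone ended the pre-secretory and the post-secretory one.

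The second entry by abundance, XP_016671604.1, had its highest values in the secretory floral nectary. There it was at 242, 212 and 55.6 in the nectary samples, against 14.4, 15.6 and 27.7 in the adjacent samples, with no overlap although nectary replicate 3 was far below the others, and the difference of 2.88 ± 0.74 (adjusted p = 0.00970) was called. It was lost without nectary replicate 1 (2.49, adjusted p = 0.0672) or nectary replicate 2 (2.59, adjusted p = 0.0669), with scaling by the total (2.34, adjusted p = 0.0515) and with the compared conditions alone (2.88, adjusted p = 0.0558). In pre-secretory flowers it was at 34.8 and 70.3 in the nectary samples, against 5.47, 7.45 and 14.6 in the adjacent samples, and in post-secretory flowers at 61.4, 72.4 and 52.3 in the nectary samples, against 46.5, 12.5 and 16.3 in the adjacent samples. These groups did not overlap either, but the differences (2.41 ± 0.83, adjusted p = 0.0671 and 1.49 ± 0.74, adjusted p = 0.384) were not called. XP_016706454.1, which has no paired gene, was likewise above its adjacent tissue at each floral stage, at 28.3, 19.0 and 9.08 in the nectary samples, against 3.21, 5.76 and 2.68 in the adjacent samples during secretion, and no floral difference of it was called.

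In bracteal and circumbracteal tissue the same entry, XP_016671604.1, carried most of the calls. In pre-secretory circumbracteal tissue it was at 7.35, 0 and 0 in the nectary samples, against 74.2, 61.1 and 21.3 in the adjacent samples. The nectary pools without a value above 0 were replicates 2 and 3, the groups did not overlap, and the log2 fold change of -4.54 ± 0.74 (adjusted p = 0.000158) was called with any sample left out. In post-secretory circumbracteal tissue it was at 8.86, 3.10 and 26.1 in the nectary samples, against 37.7, 39.2 and 125 in the adjacent samples, and in post-secretory bracteal tissue at 6.98, 12.0 and 29.7 in the nectary samples, against 74.4, 115 and 113 in the adjacent samples. Neither pair of groups overlapped, and both were called, at -2.49 ± 0.74 (adjusted p = 0.0362) and -2.76 ± 0.74 (adjusted p = 0.0328). The bracteal call was lost in 5 of 6 fits that left out 1 sample, all but the one without nectary replicate 3 (-2.97 to -2.32 in those that lost it), and the circumbracteal one in 4 of 6, without nectary replicates 1 or 2 or adjacent replicates 2 or 3 (-2.76 to -1.83). Both were also lost with scaling by the total (-2.46, adjusted p = 0.108 and -2.60, adjusted p = 0.0549), and all 3 with the compared conditions alone. The bracteal call was further lost with 0.5 added before the logarithm (-2.82, adjusted p = 0.0555). Run 1 alone ended the post-secretory circumbracteal one (-2.01, adjusted p = 0.0898).

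Of the LOC107889382 isoforms, XP_016669278.1 was called lower in post-secretory circumbracteal nectaries, at 0, 0 and 3.14 in the nectary samples, against 9.97, 19.6 and 34.2 in the adjacent samples (-3.64 ± 0.97, adjusted p = 0.0181). This call was lost without nectary replicates 1 or 2 or adjacent replicates 2 or 3, at -3.61 to -3.23, and with scaling by the total (-3.33, adjusted p = 0.0511), run 2 alone or the compared conditions alone. XP_016669276.1 was called lower in pre-secretory circumbracteal nectaries, where it was listed at 0 in all 3 nectary samples, against 10.9, 12.6 and 3.99 in the adjacent samples. No fold is given against a group at 0, and the call was lost without nectary replicate 3 (adjusted p = 0.0610), adjacent replicate 1 (0.0544) or adjacent replicate 2 (0.0799), and with the compared conditions alone (0.116). Summed by gene, a step added after the values were seen because isoforms of a gene can split its reads, LOC107889382 was at 8.57, 0 and 0 in the nectary samples, against 28.7, 27.1 and 3.99 in the adjacent samples before and 0, 0 and 3.14 in the nectary samples, against 23.3, 27.4 and 41.7 in the adjacent samples after secretion in circumbracteal tissue. The second of these pairs of groups did not overlap, and the log2 fold changes of -2.92 ± 0.74 (adjusted p = 0.0114) and -4.27 ± 0.74 (adjusted p = 0.000322) were both called. LOC107891351, which also sums its isoforms, was called in the comparisons in which XP_016671604.1 was, at 2.84 in secretory floral, -2.69 in post-secretory bracteal, -4.68 in pre-secretory circumbracteal and -2.60 in post-secretory circumbracteal nectaries.

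XP_016706470.1 also had log2 fold changes below 0 in every bracteal and circumbracteal comparison. It was not called in any of them, and was not tested against XP_016671604.1. It was at 20.3 and 23.3 in the nectary samples, against 113 and 64.8 in the adjacent samples in pre-secretory bracteal tissue and at 26.8, 42.0 and 22.1 in the nectary samples, against 49.6, 59.1 and 77.2 in the adjacent samples in post-secretory bracteal tissue. In circumbracteal tissue it was at 38.0, 23.9 and 57.3 in the nectary samples, against 45.5, 81.4 and 101 in the adjacent samples before secretion. After secretion it was at 26.6, 37.2 and 16.7 in the nectary samples, against 34.3, 47.0 and 62.0 in the adjacent samples. The bracteal groups did not overlap and the circumbracteal ones did, and the log2 fold changes were -1.93 ± 0.52 (adjusted p = 0.218), -1.04 ± 0.43 (adjusted p = 0.258), -0.93 ± 0.43 (adjusted p = 0.188) and -0.84 ± 0.43 (adjusted p = 0.253) in the same order. In pre-secretory leaves it was at 10.4 and 11.4 in the nectary samples and listed at 0 in both adjacent samples, which was called higher. That call was kept with any sample left out and lost with 10 added before the logarithm (adjusted p = 0.239) or with the compared conditions alone (adjusted p = 0.316). In post-secretory leaves it was at 10.9, 11.6 and 14.9 in the nectary samples, against 9.50, 16.7 and 13.0 in the adjacent samples, which overlapped (-0.04 ± 0.43, adjusted p = 1).

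**Figure D3:**
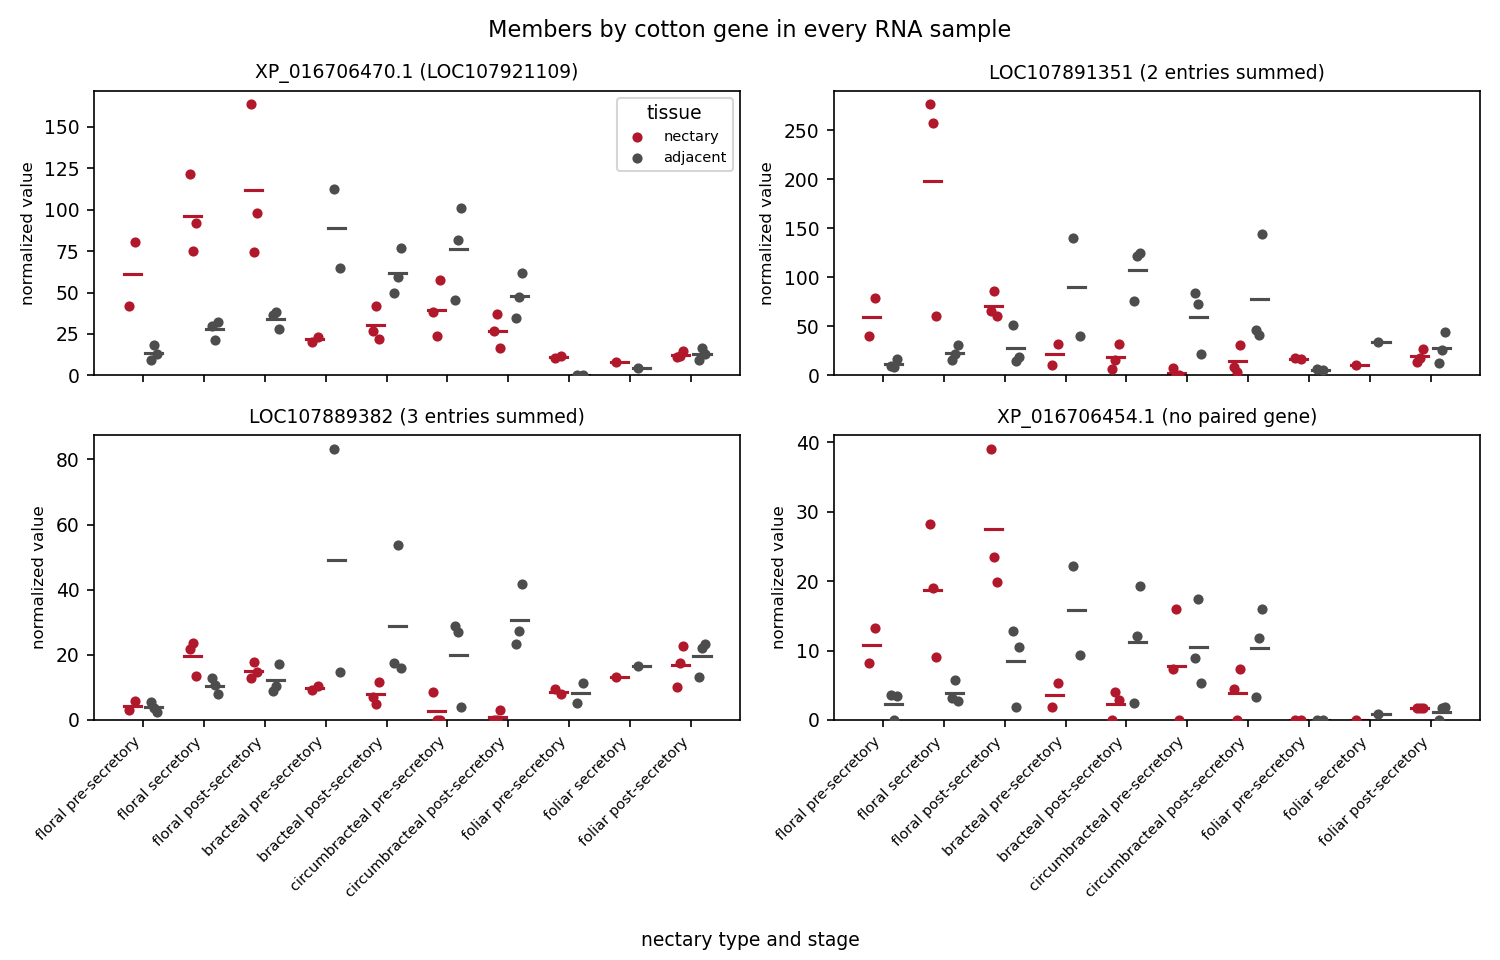
Normalized values of the paired cotton genes LOC107921109, LOC107891351 and LOC107889382 and of the unpaired entry XP_016706454.1 (vertical axes) by nectary type and stage, nectary left of adjacent. Points are samples and bars are means. LOC107891351 reaches 276 in the secretory floral nectary and lies at 0 in 2 pre-secretory circumbracteal nectary samples.

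Counted over the 7 entries, 1 was called higher and 0 lower in pre-secretory floral nectaries, where 3.67% of the 48846 entries tested were called higher and 4.32% lower, and 6 of the 7 log2 fold changes were above 0. In secretory floral nectaries 2 were called higher and 0 lower (3.05% and 5.35% of all entries), with all 7 above 0, and in post-secretory ones 1 higher and 0 lower (1.77% and 2.03%), with 6 above 0. The medians of the 7 were 1.40, 1.75 and 1.07, beside medians over all entries of -0.03, -0.10 and -0.03. In bracteal and circumbracteal nectaries all 7 log2 fold changes were below 0 in each of the 4 comparisons. The counts called higher and lower there were 0 and 0 in pre-secretory bracteal (0.0389% and 0.0225% of all entries; 2 of the 7 at an unadjusted p under 0.05 in limma), 0 and 1 in post-secretory bracteal (1.28% and 1.24%), 0 and 2 in pre-secretory circumbracteal (1.15% and 6.01%) and 0 and 2 in post-secretory circumbracteal nectaries (1.61% and 4.8%). The medians of the 7 were -1.88, -1.28, -1.47 and -2.19, beside 0, 0.09, -0.27 and -0.26 over all entries. In foliar nectaries 1 was called higher and 0 lower before secretion (0.586% and 0.102%) and 0 and 0 after it (1.18% and 0.835%; none of the 7 at an unadjusted p under 0.05 in limma), with medians of 0.03 and -0.10 beside -0.05 and 0.07. The entries of 1 gene, and probably those of near-identical copies, share reads, so the 7 are not independent.

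Between the stages of a nectary, the summed level was not called different in any of 6 comparisons by limma, and 1 of the 6 had an unadjusted p under 0.05, where 14.4% of all matches and comparisons were called. That 1 was the secretory over the pre-secretory floral nectary (1.25 ± 0.44, adjusted p = 0.0725), whose samples, 448, 375 and 175 and 93.1 and 179, overlapped slightly. It was called without pre-secretory replicate 2 (1.72, adjusted p = 0.0470) and without secretory replicate 3 (1.66, adjusted p = 0.0162). Post-secretory over secretory floral was -0.47, post-secretory over pre-secretory floral 0.78, bracteal 0.06, circumbracteal -0.19 and foliar 0.40. Among the entries, 1 of 42 was called (9.21% of all entries and comparisons), XP_016671604.1 in the circumbracteal nectary (2.35 ± 0.74, adjusted p = 0.0195), which rests on the 2 pre-secretory samples at 0. It was lost without either of them (1.84 for each) or without post-secretory replicate 3 (1.65), and with scaling by the total, a single run, 10 added before the logarithm or the compared conditions alone.

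In the adjacent tissues the summed level rose with stage in flowers and leaves. In the tissue beside the foliar nectary it was 35.1, 66.7 and 81.9 after secretion, against 11.2 and 17.0 before it, without overlap (1.99 ± 0.44, adjusted p = 0.00101), and was called with any sample left out. Beside the floral nectary it was 109.9, 65.2 and 74.8 after secretion, against 27.4, 30.7 and 35.3 before it, also without overlap (1.36 ± 0.40, adjusted p = 0.0335). This call was lost without pre-secretory replicate 1 (1.28, adjusted p = 0.128), pre-secretory replicate 2 (1.36, adjusted p = 0.0944), post-secretory replicate 1 (1.15, adjusted p = 0.192) or post-secretory replicate 3 (1.42, adjusted p = 0.0719), and with scaling by the total (1.37, adjusted p = 0.158), run 1 alone or the compared conditions alone. These were 2 of 6 comparisons, where 9.07% of all matches and comparisons were called, and the bracteal (-0.07) and circumbracteal (-0.09) tissues were not among them. Among the entries, 1 of 42 was called (5.7% of all), XP_016706470.1 in the foliar tissue, where its pre-secretory samples were at 0. The change of the nectary with stage differed from that of its adjacent tissue in 0 of 6 comparisons of the summed level by limma, with 1 at an unadjusted p under 0.05, the foliar one (-1.59 ± 0.63, adjusted p = 0.664), where 0.414% of all matches and comparisons were called. Among the entries it was again XP_016706470.1 in leaves that was called, 1 of 42 (0.284% of all).

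Compared with one another, the floral nectary had the highest summed level of the 4 types. After secretion the floral samples, 281, 201 and 193, did not overlap with the bracteal (40.7, 67.0 and 68.1), circumbracteal (39.9, 40.3 and 58.6) or foliar ones (36.0, 48.2 and 66.7). The log2 differences of 1.94 ± 0.40 (adjusted p = 0.000723), 2.26 ± 0.40 (adjusted p = 0.000105) and 2.16 ± 0.40 (adjusted p = 0.000149) were called with any sample left out. Before secretion floral over circumbracteal (1.296 ± 0.44, adjusted p = 0.0273) and floral over foliar (1.79 ± 0.49, adjusted p = 0.00857) were called, and floral over bracteal was not (1.22 ± 0.49, adjusted p = 0.0946). Both pre-secretory calls were lost without floral replicate 2 (0.83 and 1.32), the first also without circumbracteal replicate 2 (1.11) and the second also without foliar replicate 2 (1.76). Both were also lost with the compared conditions alone (1.296, adjusted p = 0.225 and 1.79, adjusted p = 0.101), the first with run 1 alone (1.20, adjusted p = 0.0542) and the second with scaling by the total (1.52, adjusted p = 0.114). The 6 pairs without the floral nectary were not called, with log2 differences of -0.10 to 0.57, so that 5 of 12 pairs were called, where 13.2% of all matches and pairs were. Among the entries 16 of 84 were called (10.2% of all), 12 of them higher in the floral nectary. XP_016706470.1 was higher in the post-secretory floral nectary than in each other type, by 1.83 over bracteal, 2.01 over circumbracteal and 3.00 over foliar on the log2 scale. XP_016706454.1 was too, at 39.1, 23.5 and 19.9 in the floral samples, by 3.35, 2.94 and 3.34. Its bracteal (0, 4.00 and 2.88), circumbracteal (4.43, 0 and 7.32) and foliar values (1.68, 1.66 and 1.76) were low. The sizes of these differences therefore depend on the 1 added before the logarithm. XP_016671604.1 was lower in the pre-secretory circumbracteal than in the pre-secretory foliar nectary, with a log2 difference of -3.00.

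Ordered by mean, the 20 conditions ran from the secretory floral nectary, at 333 ± 141, through the pre-secretory bracteal adjacent tissue (243 ± 162), the post-secretory floral nectary (225 ± 48.5) and the post-secretory bracteal adjacent tissue (209.6 ± 56.0), to the tissue beside the circumbracteal nectary after (166 ± 85.3) and before secretion (166 ± 33.6) and the pre-secretory floral nectary (136 ± 60.4). Next came the adjacent tissues of the post-secretory flower (83.3 ± 23.5), secretory flower (64.8 ± 7.52) and post-secretory leaf (61.2 ± 23.9). All nectaries that were not floral followed, between 31.8 in the single secretory foliar nectary and 58.6 ± 15.5 in the post-secretory bracteal one, together with the single sample beside the secretory foliar nectary (56.2). The lowest were the pre-secretory floral adjacent tissue (31.1 ± 4.00) and the pre-secretory foliar adjacent tissue (14.1 ± 4.09). Of the 19 neighbouring pairs in this order 16 overlapped in their samples and 3 did not, so the order within the middle of the range is not resolved. The adjacent tissues themselves differed between types, in a comparison added after the values were seen. The mean of the bracteal and circumbracteal adjacent tissues over the floral one was 2.56 ± 0.36 (adjusted p = 3.82e-06) before secretion and 1.11 ± 0.34 (adjusted p = 0.0262) after it, and both were called, where 10.2% of all matches were. The pre-secretory call was kept with any sample left out, and the post-secretory one was lost in 5 of 9 such fits, without floral replicates 2 or 3, bracteal replicates 2 or 3 or circumbracteal replicate 3 (0.92 to 1.06 in these). The post-secretory one was also lost with scaling by the total (0.55, adjusted p = 0.381), run 2 alone or the compared conditions alone.

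The share of each gene in the summed level differed among conditions, which is given as a description because the scaling between entries is not known. LOC107921109 made up 60.0% to 100.0% of the sum in pre-secretory circumbracteal nectary samples, against 27.2% to 76.8% in the adjacent samples. LOC107891351 made up 0% to 12.0% there, against 16.2% to 50.3% in the adjacent samples. So the low pre-secretory circumbracteal nectary level consisted mostly of LOC107921109. After secretion the shares in the circumbracteal nectary samples were wider, 28.6% to 92.3% for LOC107921109 and 7.69% to 53.6% for LOC107891351. In the secretory floral nectary LOC107891351 had 34.4% to 68.6% of the sum, against 26.0% to 41.5% in its adjacent tissue, and in post-secretory bracteal nectaries 17.1% to 46.5%, against 49.3% to 52.6%. LOC107889382 was a small part of the floral sum, 3.19% to 3.30% in pre-secretory nectaries and 7.32% to 20.0% in their adjacent tissue, and a large part of the low foliar one, 22.0% to 25.6% in pre-secretory nectaries and 46.2% to 66.7% in their adjacent tissue. Over the 51 samples, the log2 normalized values of XP_016671604.1 and XP_016671603.1, isoforms of the same gene, had a Pearson correlation of 0.788, and those of XP_016706470.1 and XP_016706454.1, which are not paired with the same gene, 0.718. XP_016706470.1 and XP_016669278.1 had 0.096. These correlations run over samples that share tissues and library depth and are given without a test.

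The partners and targets known for BOP genes in Arabidopsis were taken as a list of 39 genes, of which 26 had an entry in the table, 102 entries in all, and all 102 were tested. Of these, 44 were called in at least 1 of the 9 nectary-over-adjacent comparisons, where 24.9% of all 48846 entries were, 8.88% higher at least once and 16.8% lower at least once. In the floral nectary 17 were called higher and 2 lower before secretion, 12 and 2 during it and 17 and 0 after it, with medians of 0.73, 0.31 and 0.83. In foliar nectaries 14 were called higher and 0 lower at each of the pre-secretory and post-secretory stages, with medians of 0.30 and 0.37. The counts were 0 and 0 in pre-secretory bracteal nectaries in limma, with 7 of 102 at an unadjusted p under 0.05, and 2 and 1 in post-secretory ones. In circumbracteal nectaries 4 were called higher and 8 lower before secretion and 7 and 4 after it. The shares of all entries called in each of these comparisons are those given for the 7 BOP entries.

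The homeodomain genes had 22 of 32 entries called at least once, 20 of them higher in some comparison and 3 lower, beside the 8.88% and 16.8% of all entries. They include class I KNOX genes, which keep meristem cells undifferentiated and which BOP proteins hold back in Arabidopsis leaves, and the BELL genes ATH1, PNY and PNF, whose proteins pair with KNOX proteins. The 3 lower ones, named after their values were seen, were BELL entries in pre-secretory circumbracteal nectaries. They were PNY XP_016723349.1 and XP_016724887.1 and PNF XP_016755910.1. In that comparison 2 homeodomain entries were called higher, PNY XP_016738976.1 (1.31) and STM XP_016711055.1 (2.55). The KNAT6 entry XP_016748108.1 was at 215 and 366 in the nectary samples, against 0.912, 9.31 and 8.62 in the adjacent samples in pre-secretory flowers. It was at 229.9, 161 and 236 in the nectary samples, against 9.63, 2.47 and 7.16 in the adjacent samples in secretory flowers and at 258, 227 and 256 in the nectary samples, against 13.9, 4.80 and 9.59 in the adjacent samples in post-secretory ones. In leaves it was at 171 and 238 in the nectary samples, against 4.31 and 0 in the adjacent samples before secretion and at 175, 361 and 318 in the nectary samples, against 0, 3.51 and 0 in the adjacent samples after it. The groups did not overlap in any of these, and the log2 fold changes were 5.61 ± 0.63 (adjusted p = 6.62e-08), 4.95 ± 0.56 (adjusted p = 1.40e-07), 4.67 ± 0.56 (adjusted p = 6.43e-07), 6.46 ± 0.69 (adjusted p = 1.03e-07) and 7.37 ± 0.56 (adjusted p = 3.05e-11) in the same order. It was not called in the bracteal or circumbracteal nectaries, so this entry was higher in the nectary both in the flower, where the BOP sum was called higher, and in the leaf, where it was not.

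A KNAT1 entry, XP_016748989.1, was at 216 and 176 in the nectary samples, against 1.82, 0 and 0 in the adjacent samples in pre-secretory flowers, without overlap. KNAT1 is known as BREVIPEDICELLUS for its role in flower stalks of Arabidopsis, and this entry was called higher in all 3 floral comparisons (7.11, 6.26 and 5.55), both foliar ones (3.77 and 3.98) and the post-secretory circumbracteal one (2.29). Another KNAT1 entry, XP_016693642.1, was called higher in foliar nectaries, by 3.26 before and 4.92 after secretion. The KNAT2 entry XP_016713685.1 was at 104 and 133 in the nectary samples, against 9.48 and 2.43 in the adjacent samples in pre-secretory leaves, which do not overlap (4.31 ± 0.45, adjusted p = 7.90e-08). It was also called higher in post-secretory leaves (2.74) and flowers (1.28). The KNAT6 entry XP_016703787.1 was called higher at the 3 floral stages (2.26, 1.59 and 1.74) and at both foliar stages (3.82 and 1.94). The KNAT1 entries XP_016726898.1, XP_016741555.1 and XP_016717694.1 and the KNAT6 entry XP_016692801.1 were listed at 0 in all adjacent samples of at least 1 comparison in which they were called higher, so no fold is given for them there.

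The TGA factors, the bZIP proteins through which BOP proteins act on their targets, had 8 of 30 entries called at least once, 7 of them lower and 2 higher in some comparison, a share of entries near the 24.9% of all entries. TGA1 entry XP_016742272.1 was listed at 0 in the 3 pre-secretory circumbracteal nectary samples, against 42.6, 31.0 and 62.5 in the adjacent samples, and was called lower. In pre-secretory flowers it was at 106 and 76.0 in the nectary samples, against 12.8, 10.2 and 9.48 in the adjacent samples and was called higher (2.95 ± 0.87, adjusted p = 0.0266). Neither pair of groups overlapped, so this entry was on the same sides of its adjacent tissue as the BOP sum in those comparisons. The following partner entries stand outside the 12 with the smallest adjusted p and were singled out after their values were seen. Pre-secretory circumbracteal nectaries also had lower TGA1 XP_016678491.1, listed at 0 in all 3 nectary samples, TGA4 XP_016698773.1 (-3.69) and TGA6 XP_016677017.1 (-3.11), and higher XP_016736255.1 of PERIANTHIA, a TGA factor of floral organ number (2.27). Another PERIANTHIA entry, XP_016703670.1, was called lower in secretory floral nectaries (adjusted p = 0.0181 in limma), where the BOP sum was higher. The NPR1 entry XP_016720391.1, of the defence regulator that gives the family its name, was called higher in pre-secretory floral (2.71 ± 0.51, adjusted p = 0.000343) and circumbracteal nectaries (1.52 ± 0.45, adjusted p = 0.0333) and was the one NPR family entry of 7 that was called. Pre-secretory circumbracteal nectary samples had values above 0 in fewer entries of the whole table, 39511, 37605 and 30965, against 44236, 45485 and 38149 in the adjacent samples, and 6.01% of all entries were called lower there. After secretion, circumbracteal nectary replicates 1, 2 and 3 had 36269, 34819 and 43087 such entries, against 42237, 44740 and 43711 in the adjacent samples. Nectary replicates 1 and 2 are those at which XP_016669278.1 was listed at 0. The part of these lower counts in the circumbracteal differences of either stage was not tested.

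Of the boundary and leaf polarity genes, 6 of 14 entries were called at least once, beside 24.9% of all entries. LOB, which marks the base of lateral organs in Arabidopsis, had 2 entries called. XP_016699316.1 was called higher in the floral nectary at the 3 stages (4.37, 3.26 and 4.32) and lower in the circumbracteal nectary before (-3.75) and after secretion (-3.36). LSH3 entry XP_016746704.1, of a boundary gene of the ALOG family, was also called higher in the floral nectary at each stage (3.01, 2.60 and 2.28) and lower in the post-secretory circumbracteal one (-1.56). CUC3 entry XP_016687972.1, of a NAC factor of organ boundaries, was lower before secretion in the flower, where it was listed at 0 in both nectary samples, and higher after it (2.35), and CUC2 entry XP_016723738.1 was higher in post-secretory foliar nectaries (4.22).

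Of the 12 entries of floral meristem genes, 6 were called higher in foliar nectaries before secretion and 2 after it, all matched to AP1. Of all entries, 0.586% and 1.18% were called higher there. Outside the leaf, AP1 entry XP_016679748.1 was called higher in pre-secretory floral nectaries (2.04 ± 0.66, adjusted p = 0.0485). AP1 entry XP_016667079.1 was called higher in post-secretory circumbracteal ones (1.96 ± 0.59, adjusted p = 0.038). AP1 is a MADS-box gene of flower identity, and BOP proteins act upstream of it in Arabidopsis flowers. XP_016703903.1, described in the table as CAULIFLOWER A-like, was at 637 and 313 in the nectary samples, against 12.9 and 9.71 in the adjacent samples before and 42.8, 169 and 23.7 in the nectary samples, against 0.950, 7.02 and 0.931 in the adjacent samples after secretion. The groups did not overlap at either stage (5.20 ± 0.67, adjusted p = 6.84e-06 and 4.19 ± 0.55, adjusted p = 3.06e-06). XP_016722877.1 was at 111 and 37.8 in the nectary samples, against 0 and 2.43 in the adjacent samples before secretion (5.16 ± 0.69, adjusted p = 1.11e-05). The 4 cullin entries, of scaffolds of the ubiquitin ligases that BTB proteins bind, and the 2 entries of abscission genes were not called in any comparison in limma, with 1 each at an unadjusted p under 0.05 in pre-secretory flowers. The 1 organ growth entry, XP_016680870.1 of JAG, was called lower in pre-secretory floral nectaries (-3.10) and in secretory ones, where it was listed at 0 in all 3 nectary samples. With the compared conditions alone in the fit, the pre-secretory foliar calls of KNAT2 XP_016713685.1, KNAT6 XP_016703787.1 and AP1 XP_016722877.1, the post-secretory foliar one of AP1 XP_016703903.1 and the pre-secretory circumbracteal one of TGA1 XP_016742272.1 were lost (adjusted p of 0.0953 to 0.351).

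The 5 entries whose log2 values followed those of XP_016706470.1 most closely over the 51 samples, among 31429 entries with a mean of at least 20, were a WRKY14-like transcription factor (XP_016688792.1, Pearson r = 0.792), a LIGHT-DEPENDENT SHORT HYPOCOTYLS 7-like protein (XP_016679595.1, 0.785), a MADS-box protein CMB1-like (XP_016703990.1, 0.785), a LOB-like protein (XP_016748664.1, 0.775) and a calcineurin B-like protein 4 entry (XP_016737742.1, 0.762). The samples share tissues and depth, so these are descriptions. The LOB-like entry was at 119 and 213 in the nectary samples, against 11.9, 10.2 and 11.2 in the adjacent samples in pre-secretory flowers. It was at 131, 124 and 138 in the nectary samples, against 15.2, 12.4 and 12.5 in the adjacent samples in secretory flowers and at 236, 189 and 159 in the nectary samples, against 7.92, 15.3 and 20.1 in the adjacent samples in post-secretory ones. Like XP_016706470.1, it did not overlap between nectary and adjacent tissue at any floral stage, and it was called higher at each (3.73, 3.21 and 3.73). The LOB-like entry was chosen for its correlation with XP_016706470.1 over these same samples, so this likeness is not separate evidence. In post-secretory bracteal tissue it was at 0, 13.0 and 2.88 in the nectary samples, against 45.9, 24.1 and 40.9 in the adjacent samples and was called lower (-3.27 ± 0.85, adjusted p = 0.0246), a comparison in which XP_016706470.1 was not called. The calcineurin B-like entry ranged from 197 to 235 in pre-secretory floral nectaries and 4.65 to 25.9 in their adjacent tissue, and the MADS-box entry, over the same tissues, from 955 to 2063 and 271 to 488. The WRKY14-like entry was at 55.6 to 196 in secretory floral nectaries and 16.0 to 24.2 in their adjacent tissue, and the SHORT HYPOCOTYLS 7-like entry at 618 to 703 in post-secretory floral nectaries and 208 to 282 in theirs. In pre-secretory flowers the SHORT HYPOCOTYLS 7-like entry overlapped, at 121 to 195 in the nectary samples and 171 to 188 in the adjacent samples.

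**Figure D4:**
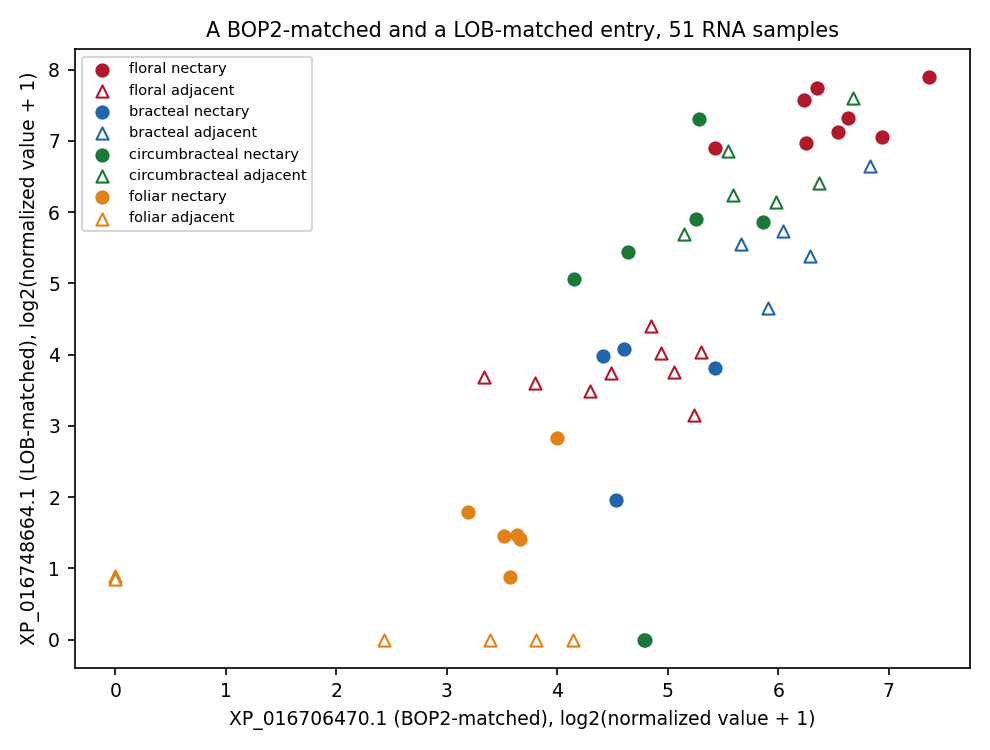
Normalized value of the LOB-like entry XP_016748664.1 (vertical axis) against that of XP_016706470.1 (horizontal axis), both on a log2(value + 1) scale, in the 51 RNA samples, with nectary and adjacent samples by type. Pearson r was 0.775, and 1 post-secretory bracteal and 1 post-secretory circumbracteal nectary sample coincide at a LOB-like value of 0.

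Of the markers of other floral organs, those of petal and stamen were higher in the floral nectary, and AG, of stamen and carpel, was not called there. AP3 and PI, the MADS-box genes of petal and stamen identity, were both called higher in the floral nectary at all 3 stages, and their summed level was 3423 to 7970 in pre-secretory nectaries, against 134 to 284 in the adjacent samples, 2719 to 3650 against 142 to 228 during secretion, and 2476 to 3578 against 176 to 234 after it. AP3 was also called higher in post-secretory circumbracteal nectaries (1.62 ± 0.36, adjusted p = 0.00414), where the BOP sum was lower. Its level was high outside the floral samples too, at 4753 to 10290 in post-secretory bracteal nectaries and 3412 to 6046 in their adjacent tissue. STM, a KNOX gene of meristems, was called higher in pre-secretory and post-secretory floral and in post-secretory bracteal (2.55) and circumbracteal nectaries (2.44), on both sides of the BOP difference. Its floral levels were low, at 11.2 and 19.9 before and 22.3, 16.9 and 73.2 after secretion, with the adjacent samples of both stages at 0. Post-secretory bracteal nectaries had 563 to 1047, against 52.6 to 264 in the adjacent samples, and circumbracteal ones 154 to 220, against 16.0 to 57.8. AG was called higher in post-secretory bracteal nectaries, and its floral log2 fold changes were 0.49 before, -1.14 during and 0.16 after secretion. Of the green leaf markers 2 of 4 had an entry and neither was called in any of the 9 comparisons. The part of petal, stamen or meristem tissue in the BOP differences was not tested.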

How the data were processed

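RNA-seq of Gossypium hirsutum TM-1 nectaries and their adjacent tissue gave 51 RNA samples, each in 2 sequencing runs. The signal values were deposited by the authors as whole numbers per NCBI protein accession, which appear scaled and rounded. The study's methods name BLASTN against the UTX-JGI cotton genome and its transcripts, counts carried over to Arabidopsis genes, and upper-quartile normalization, which is another annotation than the NCBI accessions of this table. How this table was mapped and filtered, and whether and how it was scaled, is not given in the sources used here. Low values rest on few reads, and the depth per entry is unknown.

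Both runs were added, and each sample was scaled by its upper quartile. Entries at 10 or more in at least 2 samples were tested, 48846 of 49663, and 14133 Arabidopsis matches summed over their entries. The log2(normalized value + 1) was fitted with limma 3.58.1 in R 4.3.3 (1 coefficient per condition, eBayes with trend), and p-values were adjusted by Benjamini-Hochberg. Tables and plots were made with pandas 2.3.3, numpy 2.4.6, matplotlib 3.10.9 and scipy 1.17.1 in Python 3.11.15. The fits were tested on simulated data. Genes were named by match (BOP1, BOP2), partners called at least once by smallest adjusted p (at most 12), and the 5 entries most correlated with the most abundant BOP entry. The BOP entries and the gene lists were chosen with earlier results of these data known. Alternatives were scaling by the total or the median of ratios, other values added before the logarithm, no filter, no variance trend, single runs, compared conditions alone, a replicate block and leaving out each sample. A further 18 samples of the series, a second set, have no values among those used here and were not analysed. They are secretory nectary and control samples of the bracteal, circumbracteal and foliar types. A foliar pair among them carries the label under which the secretory foliar pair analysed here is listed.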

Additional observations from a re-analysis of the deposited data

Results flagged for a closer look

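The nectary-over-adjacent change of the summed BOP level differed between nectary types by a test of the difference itself in 6 pairs, which were compared after the values had been seen. Before secretion the log2 difference was 3.97 for floral minus bracteal, 3.66 for floral minus circumbracteal, -3.30 for bracteal minus foliar and -2.98 for circumbracteal minus foliar. After secretion it was 3.26 for floral minus bracteal and 3.17 for floral minus circumbracteal. In the floral pairs the nectary was above its adjacent tissue in the flower and below it in bracteal and circumbracteal tissue, in every sample of the types compared. Both tissues enter these differences. On the log2 scale, the floral nectary was above the bracteal and the circumbracteal one by 1.22 (not called) and 1.296 before and by 1.94 and 2.26 after secretion, and the mean of the bracteal and circumbracteal adjacent tissues was above the floral one by 2.56 before and 1.11 after secretion. The entry XP_016706470.1 was called for a difference between the nectary and its adjacent tissue in their change with stage in leaves, where its pre-secretory adjacent samples were listed at 0, so no size is given.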

How the results depend on the processing

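Over settings other than leaving out samples, 600 values were recomputed, of which 526 kept their direction and their side of the threshold, 74 changed, and none reversed. Scaling by the median of ratios, leaving out the filter on low values and fitting without a variance trend changed no result. With the compared conditions alone in the fit, calls of the sum were lost in pre-secretory floral (2.02), post-secretory bracteal (-1.82), and pre-secretory (-1.64) and post-secretory circumbracteal nectaries (-1.73), and the counts called were 1 adjacent stage comparison, 3 pairs of nectary types, 3 differences between types, 1 BOP entry higher and 0 lower, and 44 partner entries higher and 2 lower (against 2, 5, 6, 5, 5, 87 and 17). Scaling by the total ended the calls in post-secretory floral (1.33, adjusted p = 0.181) and bracteal nectaries (-1.52, adjusted p = 0.119) and of the post-secretory average (-0.57), and further those of floral adjacent tissue after over before secretion (1.37), floral over foliar pre-secretory nectary (1.52), bracteal minus foliar (-3.17) and circumbracteal minus foliar (-2.98) before secretion and the adjacent tissues of bracteal and circumbracteal over floral after it (0.55), and 7 calls of BOP entries, with 1 adjacent stage comparison, 2 BOP entries higher and 2 lower. This scaling shifted the median of all matches to -0.56 in secretory floral, 0.35 in post-secretory bracteal, -0.28 in pre-secretory and -0.30 in post-secretory circumbracteal nectaries, and relative to it the sum was 2.25, -1.87, -1.54 and -1.63 there. The post-secretory average was also lost with 10 added before the logarithm (-0.52, under 1.5-fold), with run 1 alone (-0.54) and with run 2 alone (-0.59). Run 1 alone gave 1 adjacent stage comparison, 3 BOP entries higher and 3 lower, and run 2 alone 3 lower.

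With 1 sample left out at a time, the sum ranged from 1.56 to 2.49 in pre-secretory and 1.27 to 1.65 in post-secretory floral, -2.69 to -1.22 in pre-secretory bracteal, -1.79 to -1.45 in pre-secretory and -1.99 to -1.34 in post-secretory circumbracteal, and -0.59 to 0.0093 in post-secretory foliar nectaries. It ranged from -0.24 to 0.13 in the pre-secretory average (above 0 at 0.06, 0.04, 0.13 and 0.02) and from -0.68 to -0.49 in the post-secretory one. Counts called ranged from 0 to 1 for nectary stages, 1 to 2 for adjacent stages, 3 to 5 for pairs of types, and 3 to 6 for BOP entries lower.

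Same-numbered nectary and adjacent samples deviated together only in part, with correlations of -0.117 to 0.408 over 23 pairs, 17 of them over 0.1. Among comparisons with 3 shared numbers, all pairs were over 0.1 in secretory floral, post-secretory bracteal and post-secretory foliar tissue. Those with fewer shared numbers, of which pre-secretory bracteal (0.28 for both pairs) and foliar tissue (0.386) were over 0.1, and the rest were read as sharing only a name. The bracteal pairs must give the same value, since each condition has the same 2 numbers and its deviations mirror each other. This value is therefore counted 2 times among the 23 pairs and among the 17. With the replicate number as a block, no nectary-over-adjacent call changed, and 1 nectary stage comparison was called, secretory over pre-secretory floral (1.66, adjusted p = 0.0173), where the block drops secretory replicate 3, which has no same-numbered sample before secretion. No paired analysis was possible for pre-secretory foliar tissue because the groups share 1 number.

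The deposited values carry no depth per entry, so for the 5 low entries a missing call says little.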
